A study of Cyprinus carpio with 18 samples.

Results

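Common carp (Cyprinus carpio) embryos were compared at hatching, 64 h after fertilization, with embryos at organ formation, 20 h after fertilization, by sequencing of small RNA. The members were chosen by stage label: the 3 libraries of each stage, 6 of the 18 libraries that cover 6 stages. Both groups were whole wild type embryos of the FFRC No.2 strain, a farmed strain bred by selection from several carp varieties, obtained by natural spawning, and the labels give no treatment. RNA of a stage was pooled in equal amounts, and whether its 3 libraries stem from separate spawnings is not stated. The p-values thus reflect only how far libraries of the same stage differ, in the main test over all 18 libraries. That spread can be purely technical. Each library was deposited as counts per mature microRNA for 2888 sequences, of which 146 were named carp microRNAs and 2742 were predicted ones known by sequence alone.

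A microRNA is a short RNA that guides an Argonaute protein to messenger RNAs, mostly through its seed, bases 2 to 8, and lowers their translation and stability. Each hairpin precursor has a 5p and a 3p arm, and often only 1 of them is kept. In zebrafish embryos miR-430 clears maternal messenger RNAs early, and in vertebrates microRNAs of differentiated cell types accumulate later, as muscle, brain and skeleton form. In whole embryos a change in how many cells of a type are present cannot be told apart from a change in RNA per cell, and no microRNA is tied here to a genome position.

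The predicted sequences on which the results below turn are shown from the deposited lists, 5′ to 3′ as DNA letters, with the seed in capitals. Those lettered a to g were the most abundant at organ formation or among those that fell, and h to n led those that rose or were the most abundant at hatching. The last pair, o and p, have the same bases but for 1 more at the 3′ end of p. Sequences m, o and p were chosen after their values were seen. The mature sequences of the named microRNAs were not used here. Whether a predicted sequence is a form or relative of a named microRNA was thus not tested.
predicted a: gTGTGGAGagccgtttgttac
predicted b: tCCCTCTGgcttggagcctg
predicted c: tAGCTTATcagactggtgttggc
predicted d: gTGTCCGCggcgctcgcgtca
predicted e: cCTCTGGGggggtgggggtgg
predicted f: aAAGTGCTatcaagttggggta
predicted g: tGTGCAAAtccacgcaaaactcg
predicted h: tAAAGCTAgagaaccgaatgta
predicted i: aCCATCGAccgttgactgtacc
predicted j: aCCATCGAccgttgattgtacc
predicted k: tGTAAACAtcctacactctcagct
predicted l: tCCCTGAGacccttaacctgtg
predicted m: tAAAGCTAgagaaccgaaagt
predicted n: tAATCTCAgctggcaactgtga
predicted o: tCTCCCAAtccttgtaccagtgt
predicted p: tCTCCCAAtccttgtaccagtgtc

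Depth differed strongly between the stages, with 60779 to 141161 counts per organ formation library and 4964459 to 6694561 per hatching library, a mean ratio of 59.3. Stage and depth cannot be told apart in this design. Of the 146 named microRNAs, 118 were counted in every organ formation library and 144 in every hatching library. Named ones held 88.2%, 87.7% and 89.5% of the counts in organ formation libraries 1, 2 and 3 and 89.8%, 90.3% and 90.1% in hatching libraries 1, 2 and 3. Hatching library 2 stood apart from the other hatching libraries, where chi-square divided by degrees of freedom was 963.7 and 938 against them and 129.9 between libraries 1 and 3. The median SD of a microRNA between replicates on the log2 scale was 0.636 at organ formation and 0.259 at hatching.

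The test was edgeR's quasi-likelihood test on counts with TMM factors (a scaling that assumes most microRNAs do not change), fitted over all 18 libraries, with Benjamini-Hochberg adjustment over the 328 microRNAs abundant enough to test and a threshold of 0.05. All adjusted p-values of single microRNAs below come from it. Fold changes are log2, hatching minus organ formation. With these factors the median of the 127 tested named microRNAs was 0.83, against 0.62 with library totals, 0.79 with totals implied by the authors' TPM table, 0.09 with TMM factors from named microRNAs alone and 0.02 with RLE factors (median ratios to a reference library). Each log2 value is therefore to be read against 0.83, and results are led by the named microRNAs past the threshold in all 5 of these scalings.

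Of all 328 tested microRNAs 89 changed, which is 27.1%. Of the 127 tested named microRNAs, 31 rose, which is 24.4%, and 8 fell, which is 6.3%. In all 5 scalings 10 of the rises and 7 of the falls passed: miR-9-5p, miR-9-3p, miR-1, miR-182-3p, miR-217, miR-181c, miR-199-5p, miR-128, miR-125c and miR-181a rose, and miR-738, miR-29a, let-7j, miR-29b, miR-22b, let-7i and miR-430 fell. The rises include microRNAs known from brain, muscle, hair cells, pancreas and mesenchyme. With each of the 6 libraries left out in turn, 16 of the 31 rises and 6 of the 8 falls passed every time. Fewer rose each time: 17, 20 and 24 without organ formation library 1, 2 and 3, and 21, 18 and 22 without hatching library 1, 2 and 3. With RLE factors 13 rose and 17 fell, and with TMM factors from named microRNAs 13 rose and 16 fell. In share of a library's counts, the stages did not overlap for 82 of 127, which is 64.6%, the 39 called ones included. Shares are parts of 1 whole, so a large drop in some leaves larger shares to all others. The mean share of miR-430 went from 33.2% to 5.86% and that of miR-738 from 15.0% to 0.270%. A higher share at hatching is thus not by itself a rise.

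**Figure D1:**
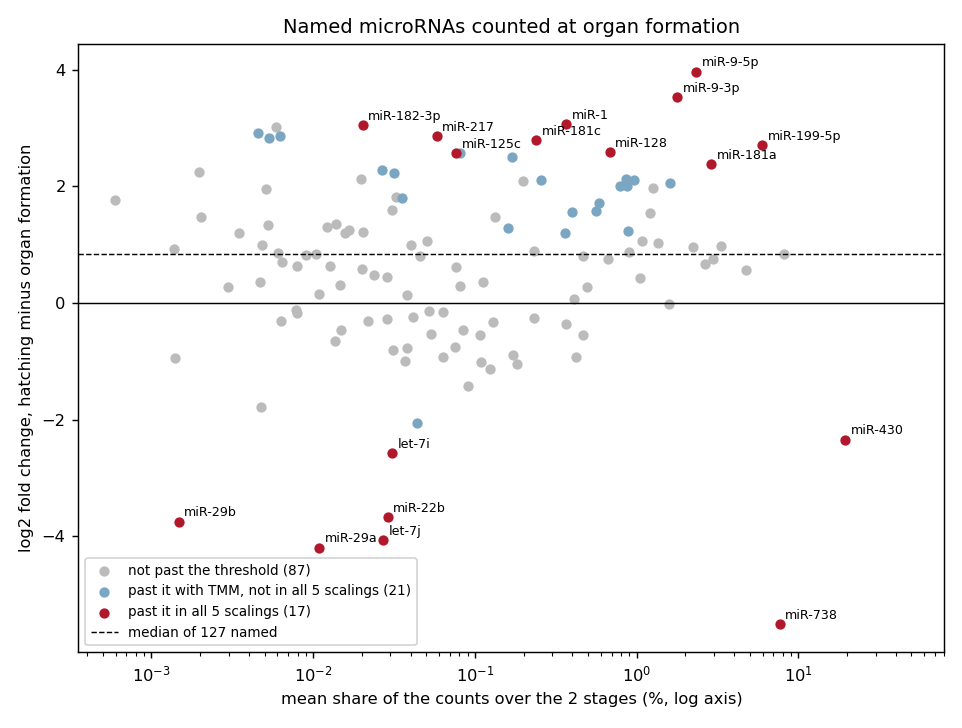
Log2 fold change, hatching minus organ formation, of each tested named microRNA counted at organ formation, against its mean share of the counts over both stages (log axis), each point 1 microRNA. Labelled points passed the threshold in all 5 scalings, 10 above and 7 below the dashed line, the median of 0.83.

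Fewer of the counts lay in the leading microRNAs at hatching. The 10 most abundant microRNAs, named or predicted, held 73.9% ± 5.46 of the counts at organ formation and 54.7% ± 1.83 at hatching (n = 3, SD). Ranks of named microRNAs, here and below, are among named ones only and leave out predicted ones. At organ formation miR-430 and miR-738 held the first and second ranks in every library. At hatching miR-10b and miR-199-5p shared them, miR-430 ranked 3, 5 and 3 in hatching libraries 1, 2 and 3, and miR-738 ranked 51, 35 and 39. miR-10b, which lies in a Hox gene cluster, was already at 2.66%, 9.03% and 6.81% in organ formation libraries 1, 2 and 3 and at 10.2%, 10.3% and 9.57% in hatching libraries 1, 2 and 3. Its stages did not overlap, with library 1 low at organ formation, and its log2 fold change of 0.84 (SE 0.68) had an adjusted p of 0.389. miR-26a ranked 7, 6 and 5 and then 8, 10 and 8, and miR-30d 3, 7 and 9 and then 11, 9 and 10.

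**Figure D2:**
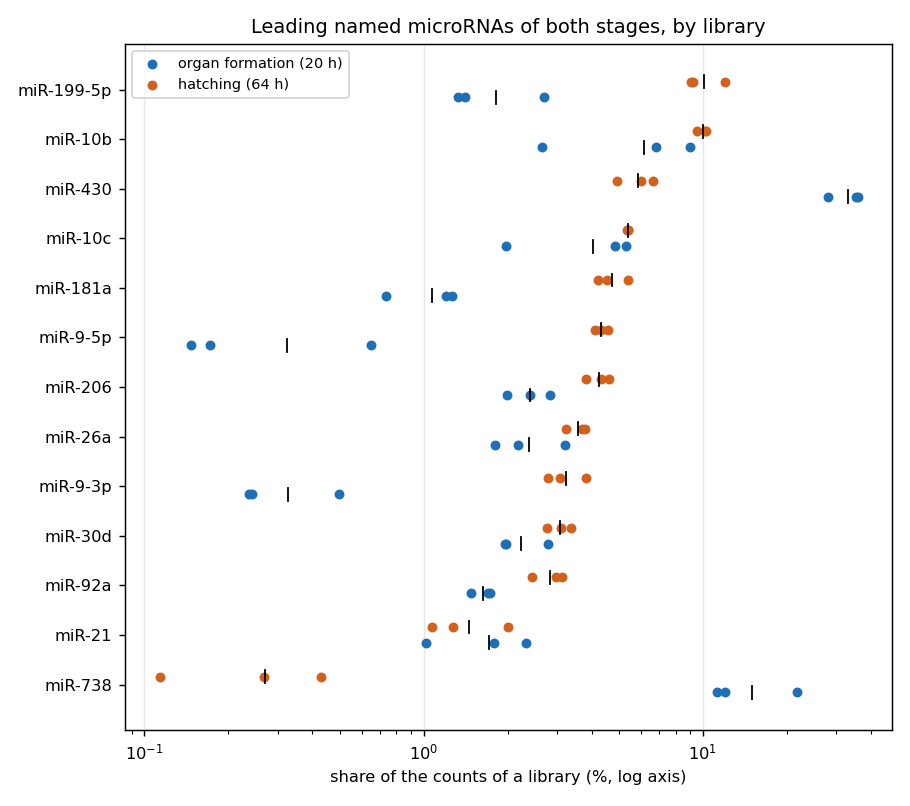
Share of the counts of a library (percent, log axis) of the named microRNAs among the 10 most abundant of either stage, with 1 point per library and a bar at the stage mean. miR-430 and miR-738 lie to the right at organ formation, and miR-9-5p, miR-9-3p, miR-181a and miR-199-5p lie to the right at hatching.

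The largest rises among named microRNAs counted at organ formation were of miR-9, and 7 of 10 tested brain microRNAs rose, against 24.4% of all tested named ones. Of these 7, 3 passed in all 5 scalings: miR-128 and both arms of miR-9, which count separately. miR-9, made in neural progenitors and known to act on their division and differentiation, was counted from both arms. miR-9-5p held 0.172%, 0.146% and 0.650% of the counts in organ formation libraries 1, 2 and 3 and 4.11%, 4.58% and 4.32% in hatching libraries 1, 2 and 3. All hatching libraries lay above all organ formation libraries, of which library 3 was the highest, and the mean share was 13.4 times as high. Its log2 fold change was 3.97 (SE 0.82 and adjusted p 0.00369) and 3.23 to 3.97 over the 5 scalings. Among named microRNAs it moved from ranks 41, 41 and 21 to 7, 6 and 6. miR-9-3p went from 0.237%, 0.242% and 0.499% to 3.08%, 3.81% and 2.79% in the libraries in the same order, a log2 fold change of 3.53 (SE 0.78 and adjusted p 0.00633).

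miR-128, enriched in neurons, held 0.196%, 0.110% and 0.336% in organ formation libraries 1, 2 and 3 and 1.28%, 0.736% and 1.42% in hatching libraries 1, 2 and 3. Its hatching shares were all higher, library 2 the lowest of them, and its log2 fold change of 2.59 (SE 0.36) had the smallest adjusted p of any named microRNA, 0.000272. Of the 15 named brain microRNAs 10 were tested, none fell, and the median was 2.71. With RLE factors 4 brain, 1 muscle, 1 hair cell, 1 mesenchyme and 2 miR-181 microRNAs rose, fewer than the counts given here and below. miR-153c, a brain microRNA known to act on synaptic vesicle release, rose by 2.57 (SE 0.59 and adjusted p 0.00771; chosen after its values were seen). miR-137, miR-135c and miR-218b rested on few counts at organ formation: 1, 0 and 3 of miR-137, 1, 1 and 3 of miR-135c and 1, 0 and 4 of miR-218b, against 533, 401 and 406, 658, 552 and 587 and 694, 431 and 441 at hatching. They passed the threshold in only 2 of the 5 scalings each.

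Some brain microRNAs were too rare to test singly. miR-124a, the best known neuronal microRNA, had 1, 1 and 1 counts in organ formation libraries 1, 2 and 3 and 28, 29 and 44 in hatching libraries 1, 2 and 3, which is 0.00125%, 0.00165% and 0.000708% and then 0.000418%, 0.000575% and 0.000886% of the counts. Its shares overlapped, and it was chosen after its values were seen. Summed with miR-124b it was tested in the family fit given below. That sum had a log2 fold change of -1.34 (SE 0.80) that did not pass (adjusted p 0.341). miR-132b, also chosen after its values were seen, was at 0 counts at organ formation and had 4, 5 and 1 at hatching. The whole list summed to 0.939% ± 0.541 of the counts at organ formation and 8.96% ± 0.356 at hatching (n = 3, SD), mostly miR-9. This sum was 1 of 22 measures, out of 31 list and library measures or 71%, whose stages did not overlap. An exact two-sided permutation test of 3 against 3 cannot give a p below 0.1.

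**Figure D3:**
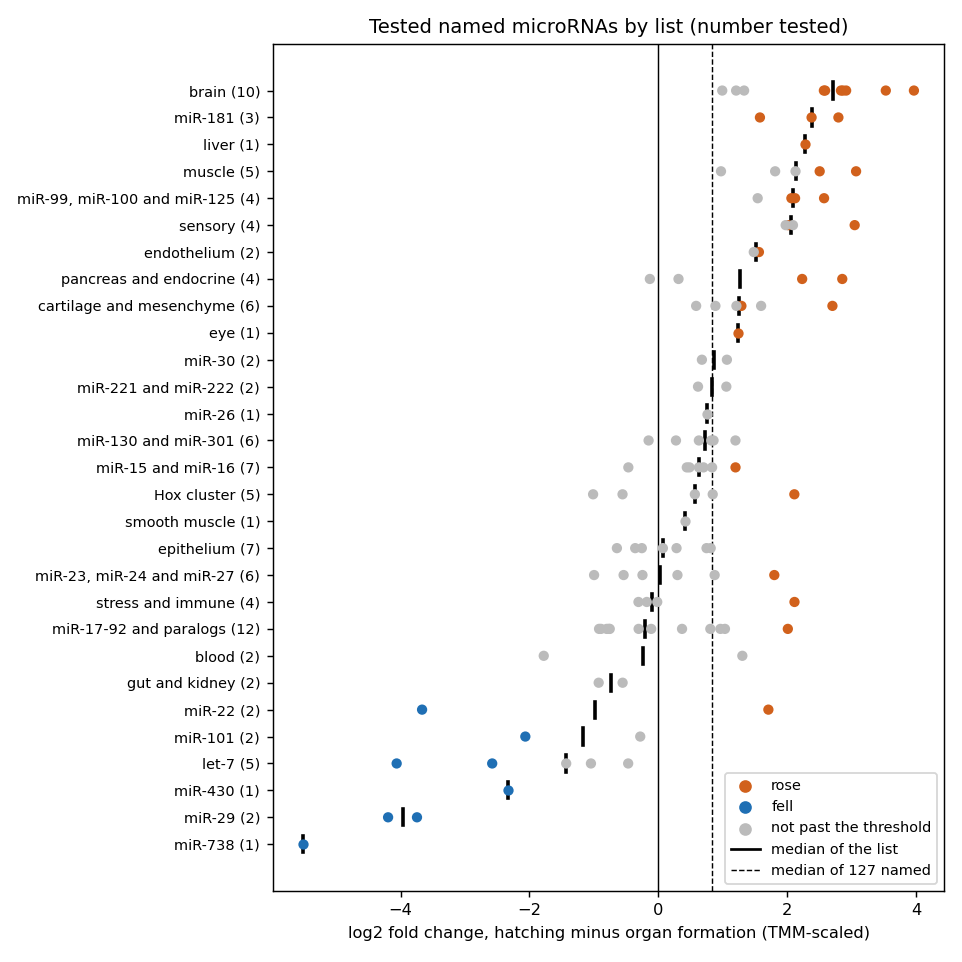
Log2 fold change, hatching minus organ formation (TMM-scaled), of each tested named microRNA by list, with the number tested in parentheses, a bar at the list's median and a dashed line at 0.83, the median of all 127. The brain, muscle, sensory and miR-181 lists lie to the right of the line, and let-7, miR-29, miR-430 and miR-738 to its left.

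Of the muscle microRNAs, miR-1 and miR-133a-3p rose. miR-1, which represses non-muscle messenger RNAs in skeletal and heart muscle, held 0.0916%, 0.0411% and 0.139% in organ formation libraries 1, 2 and 3 and 0.637%, 0.710% and 0.590% in hatching libraries 1, 2 and 3. No library overlapped, and its log2 fold change was 3.07 (SE 0.62 and adjusted p 0.00354). miR-133a-3p, from the same precursor transcripts as miR-1 in vertebrates, rose by 2.50 (SE 0.76 and adjusted p 0.0254), and passed in 1 of 5 scalings. miR-206, a skeletal muscle microRNA, was already abundant, at 1.99%, 2.84% and 2.41% and then 4.33%, 3.80% and 4.64%. Its shares were higher in every hatching library, and its log2 fold change of 0.97 (SE 0.72) did not pass (adjusted p 0.352). Of the 5 muscle microRNAs tested 2 rose, against 24.4% of all tested named ones, and none fell, with a median of 2.13.

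Among microRNAs of mesenchyme and skeleton, miR-199-5p, expressed in mesenchyme and clustered with miR-214, held 1.33%, 1.41% and 2.70% in organ formation libraries 1, 2 and 3 and 9.20%, 12.0% and 9.07% in hatching libraries 1, 2 and 3. It became the first or second microRNA of every hatching library, and its log2 fold change was 2.70 (SE 0.65 and adjusted p 0.00976). Its partner arm miR-199-3p had a log2 fold change of 0.89 (SE 0.77 and adjusted p 0.429). miR-214 did not pass either, at 1.59 (adjusted p 0.239). miR-140-3p, a cartilage microRNA, rose by 1.29 (SE 0.42 and adjusted p 0.0322), but in 1 of 5 scalings and 1 of 6 omissions of a library. Of 6 tested in this list 2 rose, a share near the 24.4% of all tested named microRNAs, and the median was 1.25.

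Hair cell and eye microRNAs were led by miR-182-3p, the minor arm of a microRNA made in hair cells and photoreceptors. It had 3, 3 and 8 counts in organ formation libraries 1, 2 and 3 and 2953, 1331 and 1829 in hatching libraries 1, 2 and 3, and rose by 3.05 (SE 0.82 and adjusted p 0.0143). The major arm miR-182-5p rose by 2.01 (SE 0.64 and adjusted p 0.0298), in 1 of 5 scalings. miR-183, of the same cluster, went from 0.309%, 0.601% and 0.764% to 2.29%, 1.66% and 1.98%, without overlap, and its log2 fold change of 1.98 (SE 0.71) did not pass (adjusted p 0.0512). miR-184, found in lens and cornea, rose by 1.24 (SE 0.36 and adjusted p 0.0213), in 1 of 5 scalings.

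The miR-181 family, known in mammals for tuning lymphocyte signalling, rose in all 3 named members. Of all tested named microRNAs 24.4% rose, and the median of this list was 2.38. miR-181a held 1.20%, 0.734% and 1.27% in organ formation libraries 1, 2 and 3 and 4.55%, 5.42% and 4.21% in hatching libraries 1, 2 and 3. Hatching shares were all higher than those at organ formation, and it rose by 2.38 (SE 0.41 and adjusted p 0.00131). miR-181c rose by 2.79 (SE 0.64 and adjusted p 0.00733), and miR-181b by 1.58 (SE 0.46 and adjusted p 0.0213), the last in 1 of 5 scalings. Of miR-99, miR-100, miR-125b and miR-125c, whose genes lie beside let-7 genes in vertebrates, 3 rose, against the same 24.4%. Of them 1 passed in all 5 scalings. miR-125c (chosen after its values were seen) went from 0.0213%, 0.0197% and 0.0319% to 0.137%, 0.107% and 0.143% and rose by 2.57 (SE 0.46 and adjusted p 0.00154). miR-100 went from 0.477%, 0.505% and 1.07% to 2.69%, 2.16% and 2.73% and rose by 2.06 (SE 0.51 and adjusted p 0.00994), in 3 of 5 scalings. miR-125b (chosen after its values were seen) rose by 2.12 (SE 0.52 and adjusted p 0.00978), also in 3 of 5 scalings.

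miR-217 and miR-122, microRNAs of pancreas and liver, rose from few counts, and those of gut and kidney did not pass. miR-217, expressed in the exocrine pancreas, had 13, 6 and 31 counts in organ formation libraries 1, 2 and 3 and 6327, 5715 and 4533 in hatching libraries 1, 2 and 3, and rose by 2.85 (SE 0.58 and adjusted p 0.00354). miR-7a, abundant in endocrine cells, rose by 2.23 (SE 0.56 and adjusted p 0.00994), in 1 of 5 scalings. Of the 4 tested pancreas and endocrine microRNAs 2 rose, against 24.4% of all tested named ones, with a median of 1.27. With RLE factors 1 rose and the median was 0.40. miR-375 and miR-7b (chosen after their values were seen) did not pass, at -0.13 and 0.31 (adjusted p 0.927 and 0.755). miR-122, the main microRNA of hepatocytes, had 3, 6 and 22 counts at organ formation and 3013, 1845 and 2382 at hatching and rose by 2.28 (SE 0.58 and adjusted p 0.0112), in 3 of 5 scalings. miR-192 and miR-194 of gut and kidney had log2 fold changes of -0.55 and -0.93 (adjusted p 0.693 and 0.501). Their shares stood high in organ formation library 3, which held 1.47% of its counts in them against 0.314% and 0.234% in libraries 1 and 2.

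Single members of several other lists rose. miR-126-3p, an endothelial microRNA, rose by 1.56 (SE 0.55 and adjusted p 0.0462), and miR-146a, induced by inflammatory signalling in mammals, rose by 2.11 (SE 0.56 and adjusted p 0.0143). miR-126-3p passed in 0 of 6 omissions of a library, and miR-146a passed in 3 of 5 scalings. miR-22a rose by 1.71 (SE 0.31 and adjusted p 0.00187), in 3 of 5 scalings, and so did miR-16b, of a family that slows the cell cycle, by 1.20 (SE 0.40 and adjusted p 0.0361), the last in 1 of 5 scalings and 1 of 6 omissions. In the miR-23, miR-24 and miR-27 list 1 of 6 tested members rose, against 24.4% of all tested named ones, and with RLE factors 0 did. It was miR-27c-3p (chosen after its values were seen), by 1.80 (adjusted p 0.00369). Of the 5 Hox cluster microRNAs 1 rose, miR-10d (chosen after its values were seen), against the same 24.4%. The median of that list was 0.57. Of 12 tested members of the miR-17-92 clusters, which promote proliferation, 1 rose, none fell and the median was -0.21. With RLE factors 3 members of that list and 2 Hox microRNAs fell instead, and none of either rose.

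None of the 7 epithelial microRNAs passed, and their median was 0.07. miR-205 and miR-200a, known from skin and other epithelia, had log2 fold changes of 0.75 (SE 0.40) and 0.28 (SE 0.35). Their list held 2.22% ± 0.608 of the counts at organ formation and 2.23% ± 0.163 at hatching (n = 3, SD). Neither miR-144 nor miR-142-5p of blood passed, with 5, 3 and 16 and 9, 0 and 16 counts at organ formation. miR-143 of smooth muscle, miR-26a, miR-30b, miR-30d, miR-221, miR-222, miR-21, miR-23b, miR-27d, miR-130c, miR-454b, miR-15b, miR-92a and miR-363 did not pass either, with log2 fold changes from -0.15 to 1.06.

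Both microRNAs that took the largest shares at organ formation fell. miR-738, a microRNA named in fish, held 21.8%, 11.2% and 12.0% in organ formation libraries 1, 2 and 3 and 0.113%, 0.429% and 0.267% in hatching libraries 1, 2 and 3. The lowest organ formation share lay far above the highest hatching share, and its log2 fold change was -5.51 (SE 0.90 and adjusted p 0.000956). miR-430 held 35.5%, 35.9% and 28.0% in organ formation libraries 1, 2 and 3 and 6.01%, 4.94% and 6.63% in hatching libraries 1, 2 and 3. Its stages did not overlap, and its log2 fold change was -2.34 (SE 0.69 and adjusted p 0.0213), or -3.19 to -2.34 over the 5 scalings. It passed the threshold in 2 of the 6 fits that left out a library, with log2 values from -2.47 to -2.18.

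The let-7 family, which promotes differentiation in many animals, had 2 falls and no rise among 5 tested members. Of all tested named microRNAs 6.3% fell. let-7j held 0.0364%, 0.0214% and 0.0963% in organ formation libraries 1, 2 and 3 and 0.00317%, 0.00210% and 0.00286% in hatching libraries 1, 2 and 3, with organ formation library 3 the highest, and fell by 4.06 on the log2 scale (SE 0.70 and adjusted p 0.00131). let-7i fell by 2.58 on the log2 scale (SE 0.69 and adjusted p 0.0143) and passed in 3 of 6 omissions. let-7a and let-7b had log2 values of -1.05 and -0.47 that did not pass (adjusted p 0.184 and 0.670). Over the 5 members the median was -1.43, and 4 fell with RLE factors.

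The remaining falls were of rare microRNAs. miR-29a, of a family that represses collagen messenger RNAs in mammals, had 8, 5 and 62 counts in organ formation libraries 1, 2 and 3 and 100, 44 and 30 in hatching libraries 1, 2 and 3, with organ formation library 3 far above the others. It fell by 4.19 on the log2 scale (SE 0.96 and adjusted p 0.00733), and miR-29b by 3.75 (SE 0.76 and adjusted p 0.00354). miR-22b fell by 3.67 on the log2 scale (SE 0.76 and adjusted p 0.00369), from 0.0289%, 0.0263% and 0.107% to 0.00361%, 0.00371% and 0.00377%. miR-101a, known in mammals to repress the chromatin enzyme Ezh2, fell by 2.06 on the log2 scale (SE 0.51 and adjusted p 0.00994), in 4 of 5 scalings. In raw counts miR-22b was higher in every hatching library, with 23, 16 and 151 in organ formation libraries 1, 2 and 3 and 242, 187 and 187 in hatching libraries 1, 2 and 3.

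**Figure D4:**
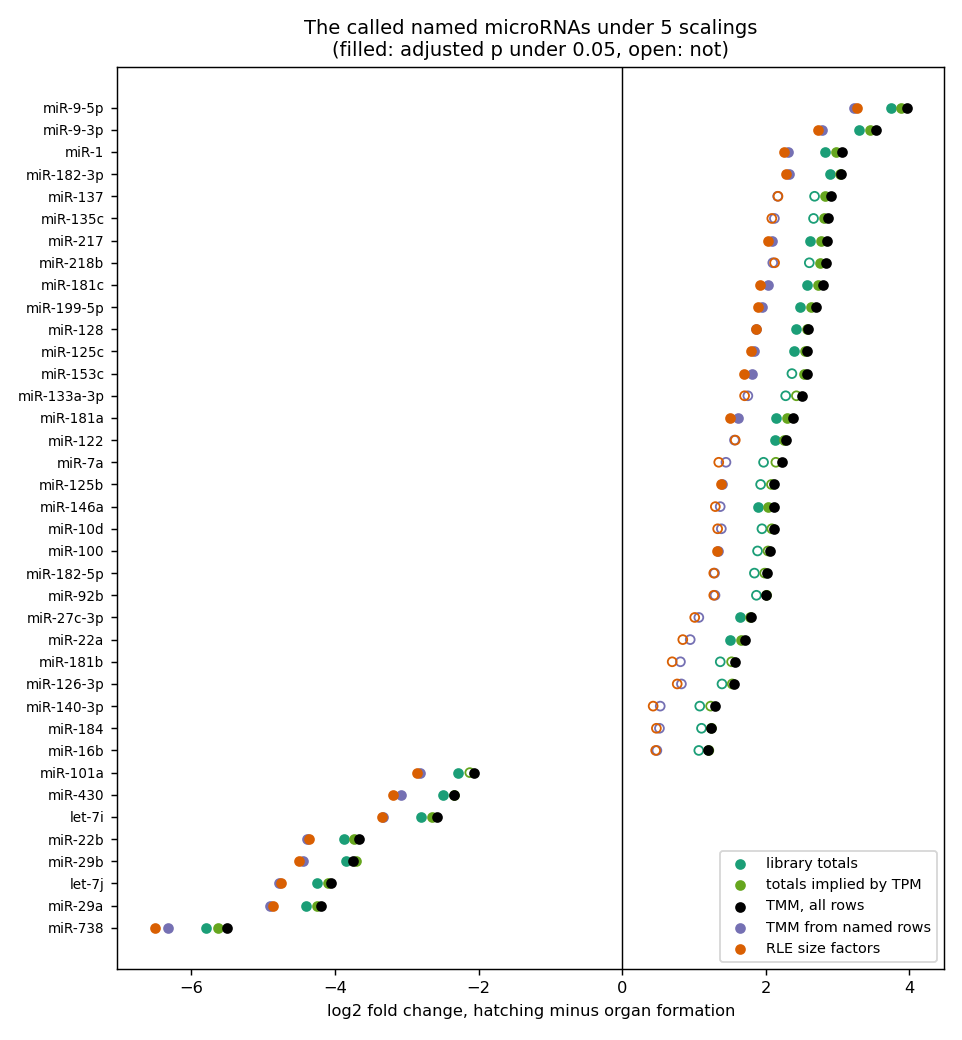
Log2 fold change, hatching minus organ formation, of the called named microRNAs counted at organ formation under 5 scalings, filled where the adjusted p was under 0.05. Every value lies on the same side of 0 in all 5, and the 10 rises filled in all 5 include miR-9-5p, from 3.23 to 3.97.

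Of the named microRNAs, 10 had no count in any organ formation library and were counted at hatching. miR-489, which keeps muscle stem cells quiescent in mouse, had 218, 134 and 151 counts in hatching libraries 1, 2 and 3 and passed (adjusted p 0.0361). Against a floor of 3 counts over the 3 organ formation libraries its scaled level was at least 3.21-fold higher at hatching, and its share at least 2.83-fold higher. It passed in 1 of 5 scalings and in 0 of 6 omissions of a library. The other 9 reached between 10 and 179 counts over the 3 hatching libraries, of which 1 was tested and did not pass.

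Ratios of counts within 1 library do not depend on depth or scaling. For 9 microRNAs the arms together had at least 10 counts in every library, and the stages did not overlap for 2, which is 22.2%. In miR-199 the log2 of 5p over 3p was 2.91, 4.59 and 3.13 in organ formation libraries 1, 2 and 3 and 5.07, 5.36 and 4.99 in hatching libraries 1, 2 and 3. The ratio rose from 11.6 to 35.2, which is 3.03-fold. In miR-182 it was 5.66, 5.61 and 6.44 and then 4.84, 5.30 and 5.22, a mean difference of -0.78. The exact two-sided permutation p was 0.1 for both, the smallest the design allows, and 0.36 for both when adjusted over the 9 pairs. The miR-182 ratio rests on the few miR-182-3p counts at organ formation given above. The arms of miR-9, where 5p exceeded 3p in every hatching library and in organ formation library 3, overlapped between stages, with -0.46, -0.72 and 0.38 and then 0.42, 0.27 and 0.63. The remaining 6 pairs overlapped too.

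Within a family, ratios of the most abundant member to another were computed for 31 pairs, a comparison added after seeing the data, with the pairs given here chosen after their values were seen. In 17 pairs, which is 54.8%, the stages did not overlap. miR-22a over miR-22b was 11.0, 10.5 and 3.00 in organ formation libraries 1, 2 and 3 and 237, 249 and 215 in hatching libraries 1, 2 and 3. let-7a over let-7j was 6.55, 3.08 and 4.80 and then 38.2, 41.4 and 39.4, and let-7a over let-7i 4.87, 3.33 and 4.95 and then 15.2, 11.2 and 15.0. miR-153c over miR-153b went from 0.966, 0.857 and 0.829 to 3.25, 2.29 and 2.60, and miR-101b over miR-101a from 0.492, 1.14 and 0.203 to 1.72, 1.54 and 1.50. Others went the opposite way, as miR-92a over miR-92b, 6.09, 4.62 and 3.40 and then 1.91, 2.55 and 1.99, and miR-10b over miR-10d, 12.2, 19.6 and 13.2 and then 6.47, 6.82 and 6.23. How reads shared by near-identical members were assigned is not given in the sources used here, which leaves values of single members uncertain.

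**Figure D5:**
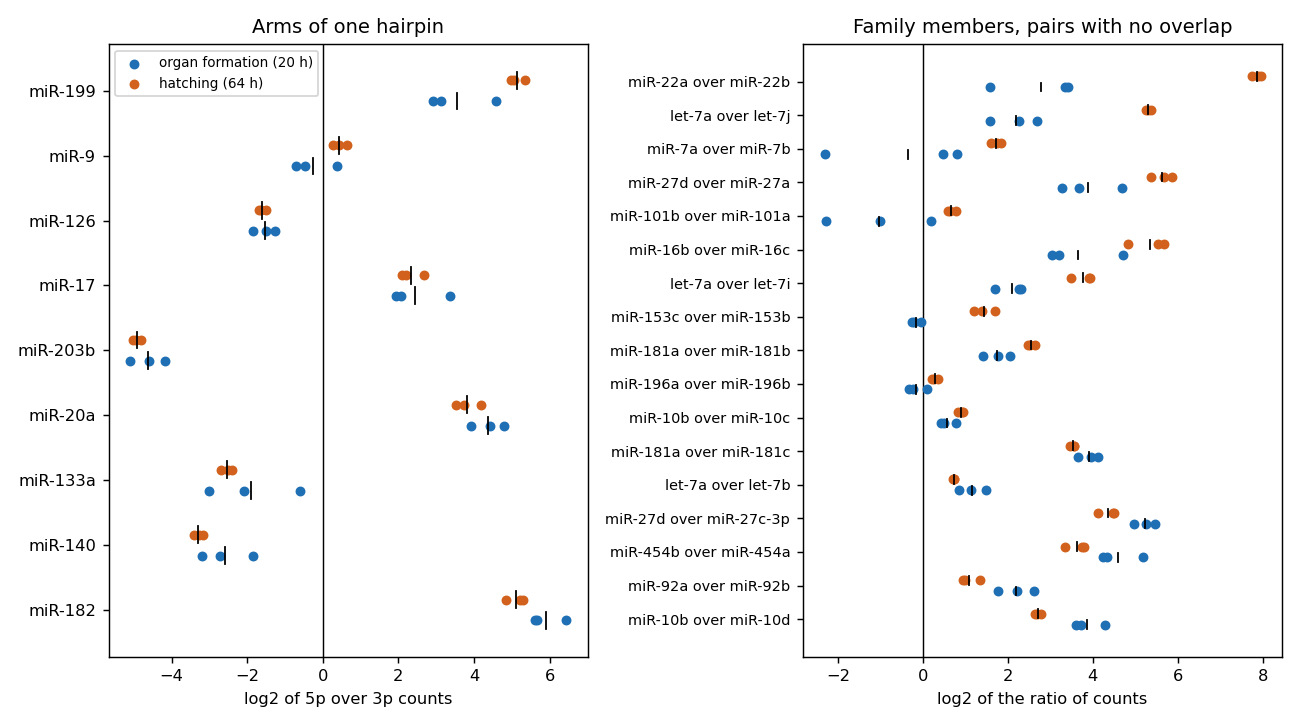
Log2 of 5p over 3p counts of 9 hairpins (left) and of the ratio of 2 members of a family for the 17 pairs without overlap between stages (right), with 1 point per library and a bar at the stage mean. The miR-199 points lie further right at hatching, the miR-182 points further left, and miR-22a over miR-22b shows the widest gap.

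Summed over all named members of a family, with predicted sequences left out of the sums, 9 of 89 families rose, which is 10.1%. Another 9 fell, also 10.1%. Those that rose were miR-9 (3.13), miR-1 (2.39), miR-217 (2.19), miR-128 (1.97), miR-199 (1.96), miR-181 (1.58), miR-125 (1.52), miR-146 (1.50) and miR-100 (1.45), with log2 fold changes in parentheses. The families that fell were miR-738 (-6.25), miR-29 (-4.76), miR-430 (-2.98), miR-142 (-2.45), miR-101 (-1.90), let-7 (-1.84), miR-148 (-1.80), miR-17 (-1.59) and miR-196 (-1.40). The family fit has its own TMM factors, with which the median of the 89 families was 0.34 and not 0.83, so its values lie lower than those of single microRNAs. miR-148, a family of 1 member here, and miR-142, counted from its 5p arm alone, fell as families but did not pass as single microRNAs, at -1.13 and -1.78 (adjusted p 0.176 and 0.0959). As families they passed in 3 and 4 of 13 alternatives. Of the other families above, let-7 and miR-196 passed in 3, miR-17 and miR-146 in 4, and miR-100 and miR-125 in 5. miR-199 and miR-217 passed in 6, and the rest in 10 to 13. Over the alternatives miR-196 ranged from -1.68 to 0.02. miR-17-5p, miR-17-3p, miR-196a and miR-196b did not pass as single microRNAs (adjusted p 0.293, 0.370, 0.386 and 0.147). Summed, miR-22 was among neither the rises nor the falls. As each library was left out, 31 rose without organ formation library 2, 7 without organ formation library 3 and 2 without organ formation library 1. Without hatching library 1, 2 or 3 the number was 4 each time, and 3 to 6 fell over these fits. In the fit without organ formation library 2 the median of all 89 families was 1.62 and not 0.34, so its 31 rises go with higher values of families in general.

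Predicted microRNAs were listed in a library only from 5 counts up, so a missing sequence does not show 0 counts. Over the 6 libraries 1495 were listed in either stage: 141 at organ formation, 1447 at hatching and 93 at both. At the deepest organ formation total, 83 to 89 of the hatching sequences would have reached 5 counts. Of the 201 tested, 29 rose, which is 14.4%, and 21 fell, which is 10.4%, 23 and 21 of them in all 5 scalings. With each of the 6 libraries left out in turn, 19 of the 29 rises and 12 of the 21 falls passed every time. In share of a library's counts, the stages did not overlap for 99 of the 201, which is 49.3%. These include all 29 rises but only 12 of the 21 falls. Of the rises 20 were unlisted in every organ formation library, and of the falls 16 were unlisted at hatching. No fold is given for those. With unlisted sequences set to 4 counts, the most the list leaves out, in organ formation libraries, 13 rose and 9 of the 29 rises had values below 0. Without hatching library 1, and likewise without hatching library 3, 13 fell.

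Predicted a, which led all predicted ones at organ formation, had 3876, 3143 and 4513 counts in organ formation libraries 1, 2 and 3 and 395, 686 and 775 in hatching libraries 1, 2 and 3. Its mean share dropped from 4.41% to 0.0117%, with no overlap, and its log2 fold change was -8.36 (SE 0.67 and adjusted p 7.32e-06). Its raw counts were lower at hatching although the libraries were far deeper. Predicted b had 437, 267 and 400 counts at organ formation and 10, 8 and 16 at hatching (log2 fold change -10.79, SE 1.51 and adjusted p 0.000272). Predicted d had 112, 118 and 299 and then 45, 61 and 95 (log2 fold change -7.00, SE 0.85 and adjusted p 0.000134).

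Predicted c and e fell with less even counts. Predicted c had 0, 87 and 971 counts in organ formation libraries 1, 2 and 3, most of them in library 3, and was unlisted at hatching. Library 1 listed 118 counts of a form with 1 more base at the 3′ end. The 3 listed sequences with its seed, 1 of them at hatching, together held 0.263%, 0.390% and 0.848% of the counts in organ formation libraries 1, 2 and 3 and 0.160%, 0.206% and 0.166% in hatching libraries 1, 2 and 3. Predicted e had 49, 27 and 65 counts at organ formation and was listed in 1 hatching library, with 6 counts. Predicted f, with 1575, 819 and 1497 counts at organ formation and 10760, 5970 and 7791 at hatching, had a log2 fold change of -3.15 (SE 2.32) that did not pass (adjusted p 0.362). Its seed is shared by 20 listed sequences, which together held 1.65% of the counts at organ formation and 0.262% at hatching. Predicted g, the third among predicted ones at organ formation, had 375, 561 and 833 and then 38085, 46386 and 24885 counts. Its log2 fold change was 0.21 (SE 0.60 and adjusted p 0.846).

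Predicted h to n were chosen as the most abundant at hatching or among the rises, so most were rises by choice. Predicted g, also abundant at hatching, held mean shares of 0.661% at organ formation and 0.664% at hatching. Predicted h had 37, 14 and 238 counts in organ formation libraries 1, 2 and 3 and 77882, 52132 and 63595 in hatching libraries 1, 2 and 3, a log2 fold change of 4.07 (SE 1.13 and adjusted p 0.0163). Predicted m, which shares its seed, rose by 4.02 (SE 0.88 and adjusted p 0.00567), and the 3 listed sequences with that seed together went from 0.0967% to 1.41% of the counts. Predicted n rose by 3.66 (SE 0.51 and adjusted p 0.000272), predicted l by 3.44 (SE 1.05 and adjusted p 0.0261) and predicted k by 1.99 (SE 0.32 and adjusted p 0.000865). Predicted i and j share their seed. Predicted i rose by 1.97 (SE 0.61 and adjusted p 0.0285), and predicted j, with 194, 200 and 511 and then 60476, 55125 and 39977 counts, had a log2 fold change of 1.79 (SE 0.65) that did not pass (adjusted p 0.0544). The 4 listed sequences with that seed went from 0.726% to 2.20% of the counts.

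The predicted sequences of the stages also differed in makeup, outside the rule. A T as first base, U in the RNA and the base that Argonaute prefers at its 5′ pocket, began 24.5% to 32.7% of the predicted counts at organ formation and 53.9% to 57.7% at hatching. Counted by listed sequence and not by count, the shares were closer, 39.4% to 44.0% and 50.6% to 51.1%. Sequences of 22 bases, the usual length of a microRNA, held 28.5% to 34.8% and 66.1% to 73.0%. Predicted a, of 21 bases and beginning with G, made up 30.6% to 42.0% of the predicted counts at organ formation. Among the falls 6 of 21 began with T and 6 were 20 bases long, among the rises 15 of 29 and 1, and among all tested 92 of 201 and 22.

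The lists also split 1 sequence by its 3′ end. Among the predicted sequences of both stages 110 groups, of 228 sequences, differed only by bases added at the 3′ end, and in 88 groups no library listed more than 1 of the forms. Predicted o was unlisted at organ formation, had 1628, 1207 and 1349 counts in hatching libraries 1, 2 and 3 and was called a rise. Predicted p, with 1 more base, had 5, 8 and 14 counts in organ formation libraries 1, 2 and 3, was unlisted at hatching and was called a fall. Summed, they rose by 1.81 (SE 0.55 and adjusted p 0.0196). Of the 9 called sequences in such groups, 3 rises and 6 falls, 2 rises and 2 falls were still called the same way when forms were summed, and 2 falls turned to values above 0. A call on a sequence unlisted in 1 stage may thus rest on which end form was listed.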

How the data were processed

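Small RNA of whole carp embryos was extracted with TRIzol, ligated to adapters, size selected and sequenced in single-end mode on an Illumina instrument, per the labels' protocols. The authors deposited 1 table of raw read counts for each library. A TPM table of the series, also deposited by the authors, was used only for the library totals it implies, which exceeded the counts by 10.6% to 19.8% in organ formation libraries and by 2.57% to 2.69% in hatching ones. FastQC and edgeR were used, per the submitters' processing notes. Which aligner, build and prediction program were used is not given in the sources used here. Named microRNAs were listed with their zeros. Predicted ones appeared from 5 counts up and were taken as 0 where unlisted.

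Counts were scaled with TMM factors (1.49 to 1.81 in the earlier stage, 1.23 to 1.64 in the later one), passed through filterByExpr (stages as groups, count minimum 10), and modelled with a mean for each stage across all 18 libraries in edgeR 4.0.16 (glmQLFit robust, glmQLFTest) and limma 3.58.1 in R 4.3.3, with 12 residual degrees of freedom, a common biological coefficient of variation of 0.855 and Benjamini-Hochberg adjustment at 0.05. Standard errors were obtained by dividing the size of the log2 fold change by the root of F. One scaled CPM stood for 0.0905 to 0.243 counts at organ formation and 6.18 to 10.6 at hatching. A floor is 3 counts summed over a stage. It covers counting error only, as PCR reads carry no molecular identifiers. Family sums, of named microRNAs only, used the same test. Arm ratios were log2 of the counts plus 0.5, for pairs with at least 10 counts in every library. Ratios and shares were compared with exact permutation tests in Python 3.11.15 with scipy 1.17.1. Matplotlib 3.10.9 drew the figures. The test was checked on simulated data, which gives no error rate for these libraries.

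Lists were made by family number. Named microRNAs are the 12 largest rises and falls, the 10 most abundant of each stage, the 2 most abundant tested of each list and both arms of each pair, and predicted ones are the 5 most abundant among rises and among falls and the 3 most abundant of each stage. Others are said to be chosen after their values were seen. The members and lists were chosen with earlier results of these data known. Alternatives were other scalings, filters, samples and rows, DESeq2 1.42.0, a replicate block, thinning to 60779 counts and leaving out each library. Same-numbered libraries did not deviate together, with correlations of -0.0409 to -0.0295.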

Additional observations from a re-analysis of the deposited data

How the results depend on the processing

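Of 328 tested microRNAs 89 changed, against 24 of 2886 with no filter and 155 of 357 with the 2 stages alone. After thinning 54 of 187 changed, and with a library left out 63 to 74 of 328. With named microRNAs tested alone 38 of 127 changed, against 39 of 127 named ones in the main fit. Rises of named microRNAs numbered 31, against 13 with RLE factors, 14 with library totals, 13 with TMM factors from named microRNAs, 18 with TPM totals, 3 with no filter, 14 at 10 CPM, 16 with named microRNAs alone, 10 after thinning and 17 to 24 with a library left out. Falls of named microRNAs numbered 8, against 17 with RLE, 16 with TMM from named microRNAs, 5 with no filter, 27 with the 2 stages alone, 23 with DESeq2, 22 with named microRNAs alone, 18 after thinning and 6 to 10 with a library left out. With predicted sequences of the same first 18 bases summed, an alternative chosen after seeing the data, 14 named ones rose and 18 fell. With nested forms summed, also chosen after seeing the data, 45 rose and 8 fell.

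Rises of predicted ones numbered 29, against 2 with no filter, 68 with the 2 stages alone, 14 with DESeq2, 8 after thinning, 13 with unlisted sequences at 4 counts at organ formation, and 20 to 26 with a library left out. Falls of predicted ones numbered 21, against 72 with unlisted sequences at 4 counts and 13 to 19 with a library left out. Families that rose numbered 9, against 14 with TMM from named microRNAs, 1 with no filter, 21 with the 2 stages alone and 2 to 31 with a library left out. Families that fell numbered 9, against 3 with library totals, 4 with TMM from named microRNAs, 3 with no filter, 15 with the 2 stages alone, 14 with DESeq2 and 3 to 6 with a library left out. Pairs of arms without overlap numbered 2, against 2 to 5 with a library left out. The share of named microRNAs differed by 1.57 points (1.17 to 2.10) and that of the 10 most abundant by -19.12 (-22.27 to -17.50) with a library left out. No called named microRNA changed sign under any of these alternatives; 9 predicted rises did with unlisted sequences at 4 counts, and predicted falls did only where end forms were summed. The cause of these shifts was not tested.

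With the replicate number as a block 63 changed, 23 named ones rose and 8 fell, 15 predicted ones rose and 17 fell, and 4 families rose and 4 fell; 61 of the 89 calls were kept. Whether equal replicate numbers mark paired libraries is not stated in the labels. The correlations given above cannot decide it, as of the 201 tested predicted microRNAs 96 were unlisted at organ formation and 43 at hatching.

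The depth of the organ formation libraries limits what can be seen of rare microRNAs there, and predicted ones under 5 counts cannot be told from absent ones.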
